A study of Rattus norvegicus with 9 samples.

Results

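The mature microRNAs of the miR-17-92 and miR-106b-25 clusters, with their seed relative miR-92b-3p, 10 in all, were followed in cultured heart muscle cells in which Yap had been raised or lowered. They were taken by name from the deposited expression table: rno-miR-17-5p, rno-miR-18a-5p, rno-miR-19a-3p, rno-miR-20a-5p, rno-miR-19b-3p and rno-miR-92a-3p of miR-17-92, rno-miR-106b-5p, rno-miR-93-5p and rno-miR-25-3p of miR-106b-25, and rno-miR-92b-3p, whose gene lies in neither cluster (the prefix for rat, rno-, is left out where a miRNA is named again). These 10 were among 1422 entries of the table, of which 579 had enough reads to be tested, and all 10 members were tested. Small RNA had been sequenced from primary cardiomyocytes of SD rats aged 1 to 2 days, in 9 libraries of 3 groups. The Ad-Yap WT group (n = 3) received an adenovirus that overexpresses Yap1, the Ad-Yap shRNA group (n = 3) an adenovirus that knocks Yap1 down, and the Ad-GFP group (n = 3) an adenovirus with green fluorescent protein as the control. Every group was thus infected with an adenovirus, grown in serum-containing medium under normal glucose, and taken 48 h after the virus. No group received a virus with a non-targeting shRNA, and Yap mRNA was not measured in these libraries, so the labels could not be checked against Yap itself. The labels do not say whether replicates came from separate cell isolations, so p-values reflect only how these libraries vary, which may be technical.

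A microRNA cluster is a stretch of genome from which several hairpins are cut out of one primary transcript, and each hairpin can give a 5′ and a 3′ mature strand. The mature strand finds its mRNA targets mainly through its seed, the bases 2 to 8 from its 5′ end, so miRNAs with the same seed can repress overlapping targets even when they come from different clusters. The miR-17-92 cluster and its relative miR-106b-25, which lies within the cell cycle gene Mcm7, are known for their link to proliferation, and in mouse hearts miR-17-92 promotes cardiomyocyte division. Yap is the transcriptional co-activator at the end of the Hippo pathway and drives heart growth around birth.

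The mature sequences show which members share a seed and how few other bases separate them. In the sequences below, from RefSeq with the GRCr8 assembly, capitals mark the seed. The first 4 lines are the AAAGUGC family, which spans both clusters, followed by miR-18a-5p, whose seed differs from it, the miR-19 pair, the AUUGCAC family, and a pair of relatives from an X-linked paralog cluster that are described after the members.
rno-miR-17-5p: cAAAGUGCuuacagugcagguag
rno-miR-20a-5p: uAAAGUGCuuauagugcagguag
rno-miR-93-5p: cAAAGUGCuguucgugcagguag
rno-miR-106b-5p: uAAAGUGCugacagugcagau
rno-miR-18a-5p: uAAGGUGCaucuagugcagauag
rno-miR-19a-3p: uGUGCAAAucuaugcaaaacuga
rno-miR-19b-3p: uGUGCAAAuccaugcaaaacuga
rno-miR-92a-3p: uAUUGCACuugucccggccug
rno-miR-92b-3p: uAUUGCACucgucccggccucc
rno-miR-25-3p: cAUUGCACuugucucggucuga
rno-miR-20b-5p: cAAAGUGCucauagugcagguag
rno-miR-363-3p: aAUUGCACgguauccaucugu

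Positions are counted from 1 at the 5′ end, with the base of the first-named miRNA first. The miR-19 pair differed only by U11C from miR-19a-3p to miR-19b-3p. Between miR-17-5p and miR-20a-5p the changes were C1U and C12U, and between miR-92a-3p and miR-92b-3p, over their 21 shared positions, U10C and G21C. A read of such a pair is told apart by 1 or 2 bases, and how reads that fit several entries were assigned is not stated. In GRCr8 the 6 hairpins of miR-17-92 lie within 785 bases at chr15:98587848-98588632 on the plus strand. The 3 hairpins of miR-106b-25 lie within 483 bases at chr12:22156641-22157123 on the minus strand, inside the Mcm7 gene. The miR-92b hairpin is at chr2:176931653-176931735 on the minus strand. For miR-17-5p, miR-19b-3p and miR-92a-3p, RefSeq gives the same mature sequence from 2 loci, one in miR-17-92 and one in the X-linked miR-106a-363 cluster at chrX:137342777-137343647 on the minus strand, so their counts cannot be divided between chromosomes 15 and X.

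Values below are counts per 1e+06 miRNA reads (CPM) after TMM scaling, which sets the bulk of the miRNAs equal between libraries, so each change is relative to that bulk. Reads on miRNAs numbered from 1931204 to 2948713 per library in Ad-Yap WT, from 1482367 to 2094541 in Ad-Yap shRNA and from 3496284 to 3599483 in Ad-GFP. They made up on average 12.5% of the library total implied by the deposited values in Ad-Yap WT, 8.26% in Ad-Yap shRNA and 25.4% in Ad-GFP. The 6 cardiomyocyte marker miRNAs (such as miR-1-3p and miR-499-5p) were all present, with summed levels of 46260 to 55000 CPM in Ad-Yap WT, 87370 to 104100 CPM in Ad-Yap shRNA and 46360 to 50040 CPM in Ad-GFP. The 4 fibroblast markers (miR-199a and miR-214 arms) summed to 13180 to 13840 CPM in Ad-Yap WT, 5137 to 5986 CPM in Ad-Yap shRNA and 14150 to 16500 CPM in Ad-GFP, so markers of other heart cells were present too. The 2 endothelial markers (miR-126a arms) summed to 5002 to 5852 CPM in Ad-Yap WT, 6172 to 7429 CPM in Ad-Yap shRNA and 3581 to 4480 CPM in Ad-GFP. The 4 smooth muscle and pericyte markers summed to 13100 to 14840 CPM in Ad-Yap WT, 16480 to 21880 CPM in Ad-Yap shRNA and 13920 to 14750 CPM in Ad-GFP. The 8 blood cell markers summed to 487 to 845 CPM in Ad-Yap WT, 842 to 857 CPM in Ad-Yap shRNA and 936 to 999 CPM in Ad-GFP, and the 5 epithelial markers summed to between 31.2 and 47.1 CPM over the 9 libraries. Markers within a list did not always move together: of the smooth muscle and pericyte list miR-145-5p rose in Ad-Yap shRNA against Ad-GFP (log2 fold change 1.16, edgeR adjusted p = 0.00451) and miR-143-3p fell (−0.32, edgeR adjusted p = 0.00827), and of the epithelial list miR-429 fell to 4.67 ± 0.721 CPM in Ad-Yap shRNA, against 14.2 ± 2.05 CPM in Ad-GFP (SD, n = 3 each, edgeR adjusted p = 0.000793). Of the cardiomyocyte list, miR-1-3p rose in Ad-Yap shRNA against Ad-GFP (log2 fold change 0.82, edgeR adjusted p = 0.00158), as did miR-499-5p and the miR-133a arms. There miR-208a-3p (−0.09, edgeR adjusted p = 0.885) and miR-208b-3p (0.39, 0.25) did not pass. In Ad-Yap WT against Ad-GFP only miR-133a-3p of this list passed, as lower (−0.31, edgeR adjusted p = 0.031). No marker was at 0 in all 9 libraries. In Ad-Yap shRNA the blood cell marker miR-144-5p had 0 reads in every library, against 0 to 3 reads in Ad-Yap WT and 1 to 4 in Ad-GFP. Fewer cells of a type and less of a miRNA per cell cannot be told apart in such bulk samples, and the part of these shifts in the members' values was not tested. By a chi-square of counts per degree of freedom, 1 library in each group stood farthest from its fellows. These were Ad-Yap WT replicate 2 (206 and 219, against 88.8 between replicates 1 and 3), Ad-Yap shRNA replicate 3 (480 and 350, against 226 between replicates 1 and 2) and Ad-GFP replicate 2 (448 and 460, against 73.6 between replicates 1 and 3), and calls that were lost without one of them are given beside the result.

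Together the 10 members took up 0.887 ± 0.104% of the miRNA reads in Ad-Yap WT, 0.791 ± 0.063% in Ad-Yap shRNA and 0.935 ± 0.0452% in Ad-GFP (SD, n = 3 each). Before any scaling, these shares overlapped between Ad-Yap WT and Ad-GFP, and in Ad-Yap shRNA (0.719% to 0.838%) they lay below Ad-GFP (0.891% to 0.982%). In Ad-Yap WT libraries the order of the members, from the highest mean to the lowest, was miR-93-5p, miR-92a-3p, miR-20a-5p, miR-19b-3p, miR-18a-5p, miR-17-5p, miR-25-3p, miR-106b-5p, miR-92b-3p and miR-19a-3p, and of the neighbours only miR-19b-3p and miR-18a-5p had overlapping ranges. In Ad-Yap shRNA libraries miR-93-5p and miR-92a-3p overlapped at the top, miR-17-5p, miR-106b-5p, miR-18a-5p and miR-25-3p overlapped in turn, and so did miR-92b-3p and miR-19a-3p at the bottom. In Ad-GFP libraries the order was that of Ad-Yap WT, and the overlapping neighbours were miR-18a-5p with miR-17-5p and miR-17-5p with miR-25-3p. There, miR-93-5p ranked 62 of the 579 tested miRNAs with 2919 ± 185 CPM, and miR-19a-3p ranked 452 with 8.06 ± 3.22 CPM (SD, n = 3). Members of one cluster thus spanned a wide range of levels, although mature miRNAs are also captured by adaptor ligation with unequal efficiency, so that each is best compared with itself.

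**Figure D1:**
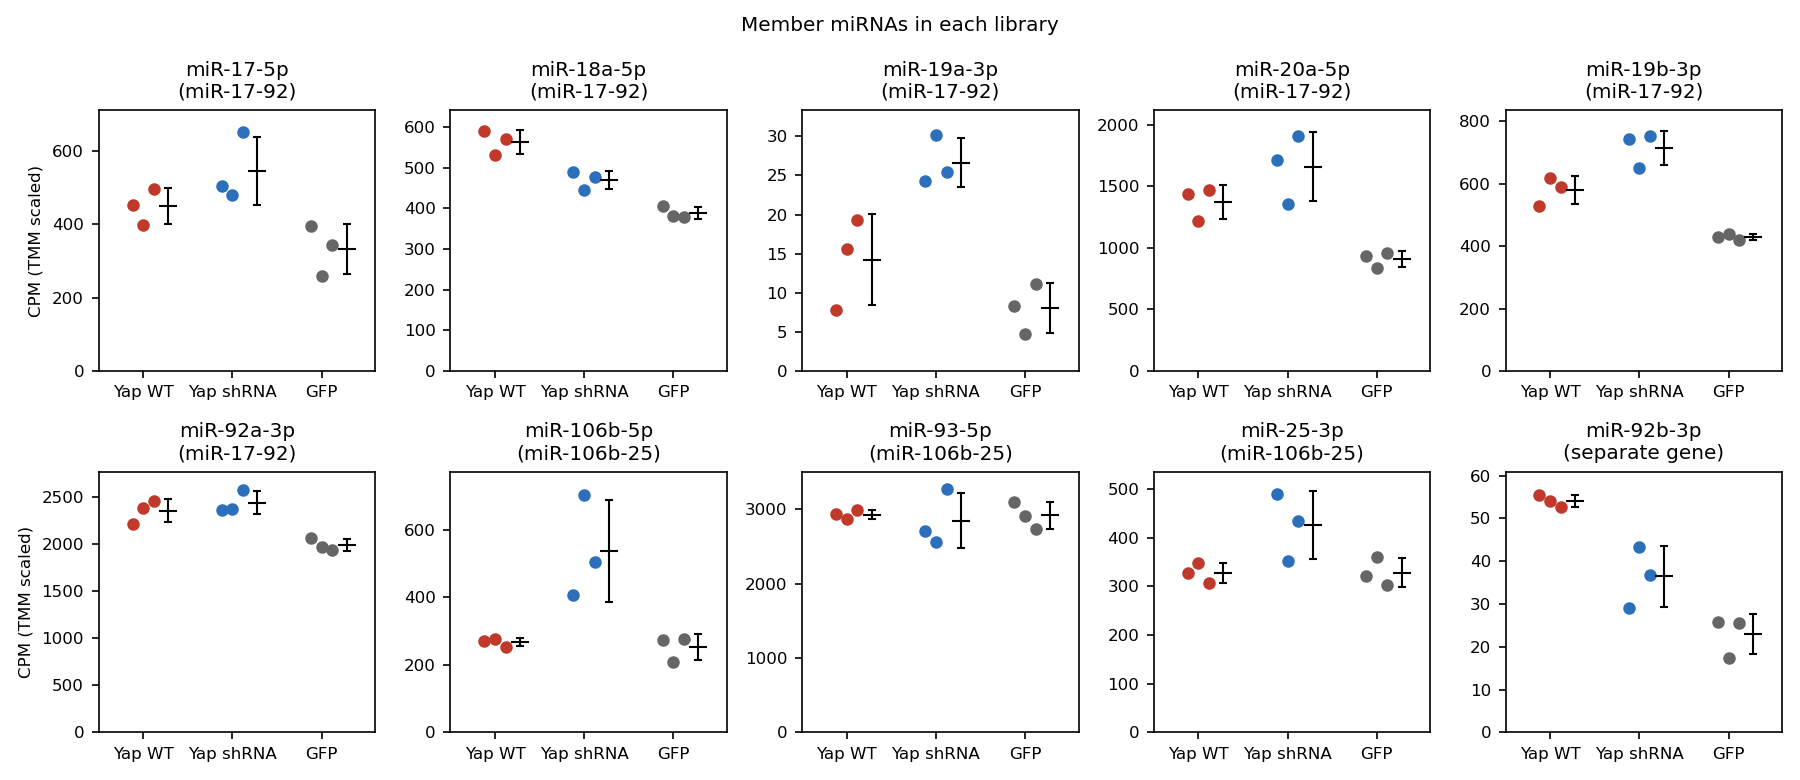
Each panel plots 1 member in TMM-scaled CPM, from 0, with a point per library for Ad-Yap WT, Ad-Yap shRNA and Ad-GFP and the mean ± SD beside it (n = 3 each). With this scaling the 6 miR-17-92 members were higher than Ad-GFP in Ad-Yap shRNA (with the deposited library totals this direction reverses), while miR-93-5p stayed between 2566 and 3268 CPM in all 9 libraries.

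Against the control virus, and with TMM scaling, most miR-17-92 members rose with either Yap virus, whereas of miR-106b-25 miR-106b-5p rose in Ad-Yap shRNA and no member passed in Ad-Yap WT cells (with the deposited library totals the fold changes of all 10 members against Ad-GFP are below 0). In Ad-Yap WT, 5 of the 10 members rose against Ad-GFP, none fell and 5 did not pass an adjusted p of 0.05 (edgeR quasi-likelihood test, Benjamini-Hochberg over 579 miRNAs), beside 25% of all tested miRNAs called in either direction, 15.4% higher and 9.67% lower. The members' median log2 fold change was 0.43, against 0.03 over all tested miRNAs. In Ad-Yap shRNA, 8 of the 10 members rose, none fell and 2 did not pass, beside 41.8% of all tested miRNAs called, 24% higher and 17.8% lower, with a median of 0.69 against 0.04. Without overlap between libraries, 6 members lay above Ad-GFP in Ad-Yap WT, beside 25% of all tested miRNAs that were higher in this way, and 8 in Ad-Yap shRNA, beside 30.9%. By cluster, 4 of 6 miR-17-92 members rose in Ad-Yap WT cells and 6 of 6 in Ad-Yap shRNA, and 0 of 3 miR-106b-25 members rose in Ad-Yap WT cells and 1 of 3 in Ad-Yap shRNA. The comparisons share the 3 Ad-GFP libraries, so the Ad-GFP values enter both. The share of miRNA reads in the implied library total also differed by group (12.5% in Ad-Yap WT, 8.26% in Ad-Yap shRNA and 25.4% in Ad-GFP on average). Its part in these rises was not tested. Without Ad-GFP replicate 2, 3 members rose in Ad-Yap WT cells and 6 in Ad-Yap shRNA, and over the leave-one-out runs the counts ranged from 2 (without Ad-Yap WT replicate 3) to 5 and from 5 (without Ad-GFP replicate 3) to 8.

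The summed levels of each cluster, TMM-scaled, are given per library. The miR-17-92 sum was 5229, 5156 and 5602 CPM in the Ad-Yap WT libraries and 5836, 5326 and 6387 CPM in the Ad-Yap shRNA libraries, against 4234, 3884 and 4036 CPM in the Ad-GFP libraries. Every library of either Yap group lay above every Ad-GFP library, with means 1.32-fold (Ad-Yap WT) and 1.44-fold (Ad-Yap shRNA) that of Ad-GFP. The miR-106b-25 sum was 3531, 3493 and 3554 CPM in Ad-Yap WT cells and 3609, 3622 and 4205 CPM in Ad-Yap shRNA, against 3701, 3487 and 3315 CPM in Ad-GFP, and both Yap groups overlapped Ad-GFP. The ratio of the sums of counts within a library does not depend on any scaling between libraries. It was 1.48, 1.48 and 1.58 in Ad-Yap WT cells and 1.62, 1.47 and 1.52 in Ad-Yap shRNA, against 1.14, 1.11 and 1.22 in Ad-GFP, with no overlap between either Yap group and Ad-GFP. The Yap groups overlapped each other. Most of the miR-106b-25 sum is miR-93-5p, with 2919 of 3501 CPM in the Ad-GFP means, so it weighs most in this ratio. Over miR-93-5p within a library, all 9 other members lay above Ad-GFP without overlap in Ad-Yap shRNA. Among them were miR-106b-5p (log2 difference 1.10) and miR-25-3p (0.41). In Ad-Yap WT cells 6 of the 9 did so, and miR-106b-5p, miR-25-3p and miR-19a-3p overlapped. No such share over other miRNAs was computed.

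Within miR-17-92, miR-20a-5p and miR-17-5p carry the AAAGUGC seed, through which the family is known in human cells to repress the cell cycle inhibitor p21. miR-20a-5p had 1435, 1217 and 1472 CPM in Ad-Yap WT libraries and 1715, 1352 and 1908 CPM in Ad-Yap shRNA libraries, against 935, 834 and 954 CPM in Ad-GFP libraries. All Yap-virus libraries lay above all Ad-GFP libraries. It rose by a log2 fold change of 0.60 in Ad-Yap WT cells (SE 0.139, edgeR adjusted p = 0.019) and of 0.87 in Ad-Yap shRNA (SE 0.14, edgeR adjusted p = 0.0021). The Ad-Yap WT call was lost without Ad-Yap WT replicate 3 (edgeR adjusted p = 0.0536), Ad-GFP replicate 1 (0.0516) or Ad-GFP replicate 2 (0.0615), and the Ad-Yap shRNA call held in all 9 leave-one-out runs. The Ad-Yap WT call was also lost with library size only (edgeR adjusted p = 0.238) and no filter (0.0867), and the Ad-Yap shRNA call with library size only. miR-17-5p had 453, 399 and 497 CPM in Ad-Yap WT libraries and 504, 480.5 and 651 CPM in Ad-Yap shRNA libraries, against 396, 259 and 342 CPM in Ad-GFP libraries. Its ranges were separate from Ad-GFP, narrowly in Ad-Yap WT. It rose in Ad-Yap shRNA, with a log2 fold change of 0.71 (SE 0.186, edgeR adjusted p = 0.017, held in all 9 leave-one-out runs), and its fold change of 0.43 in Ad-Yap WT did not pass (SE 0.185, edgeR adjusted p = 0.124). With library size only the Ad-Yap shRNA call of miR-17-5p was lost. The reads of miR-17-5p cannot be divided between its loci, while miR-20a-5p is annotated only on chromosome 15.

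miR-18a-5p, which has a seed of its own and is known with miR-19 to repress the matrix genes Ctgf and thrombospondin-1 in ageing mouse hearts, was the one miR-17-92 member with its highest values in Ad-Yap WT. It had 589.8, 529.9 and 570.0 CPM in Ad-Yap WT libraries and 489, 446 and 477 CPM in Ad-Yap shRNA libraries, against 405, 382 and 378 CPM in Ad-GFP libraries. The 3 groups did not overlap. The log2 fold change was 0.54 in Ad-Yap WT cells (SE 0.0793, edgeR adjusted p = 0.00402, held in all 9 leave-one-out runs) and 0.28 in Ad-Yap shRNA (SE 0.0792, edgeR adjusted p = 0.0241). The Ad-Yap WT call was lost with library size only (edgeR adjusted p = 0.281) and no filter (0.125). The Ad-Yap shRNA call was lost without Ad-Yap shRNA replicate 1 (edgeR adjusted p = 0.0769), Ad-Yap shRNA replicate 3 (0.0627), Ad-GFP replicate 2 (0.067) or Ad-GFP replicate 3 (0.0716), and it was lost with RLE size factors (0.103), library size only (0.115), DESeq2 (0.0873), no filter (0.544) and with only the 2 groups compared (0.067).

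The miR-19 pair, which is known to promote lymphoma growth in mice, was highest in Ad-Yap shRNA. miR-19b-3p had 530.0, 618 and 591 CPM in Ad-Yap WT libraries and 743, 652 and 752 CPM in Ad-Yap shRNA libraries, against 428.6, 438.6 and 418.8 CPM in Ad-GFP libraries. The 3 groups did not overlap. It rose by a log2 fold change of 0.44 in Ad-Yap WT cells (SE 0.0907, edgeR adjusted p = 0.0124) and of 0.74 in Ad-Yap shRNA (SE 0.0911, edgeR adjusted p = 0.000793). Without Ad-Yap WT replicate 3 the Ad-Yap WT call was lost (edgeR adjusted p = 0.0527). It was also lost with only the 2 groups compared (0.0515), library size only (0.502) and no filter (0.282), as edgeR adjusted p. The Ad-Yap shRNA call held in all 9 leave-one-out runs and was lost with library size only. miR-19a-3p, the scarcest member, had 7.85, 15.6 and 19.3 CPM in Ad-Yap WT libraries (26, 27 and 40 reads) and 24.3, 30.2 and 25.5 CPM in Ad-Yap shRNA libraries (45, 39 and 29 reads), against 8.34, 4.71 and 11.1 CPM in Ad-GFP libraries (37, 21 and 47 reads). Ad-Yap shRNA lay above the other groups, and Ad-Yap WT overlapped Ad-GFP. Its log2 fold change of 1.72 in Ad-Yap shRNA passed (SE 0.395, edgeR adjusted p = 0.00947, held in all 9 leave-one-out runs), and the value of 0.80 in Ad-Yap WT did not (SE 0.393, edgeR adjusted p = 0.169). miR-19a-3p made up 2.36 ± 0.858% of the pair's reads in Ad-Yap WT cells and 3.62 ± 0.695% in Ad-Yap shRNA, against 1.85 ± 0.764% in Ad-GFP (SD, n = 3 each). These shares overlapped between Ad-Yap WT and Ad-GFP and did not between Ad-Yap shRNA and Ad-GFP.

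miR-92a-3p, the last hairpin of miR-17-92 and known to restrain vessel growth in mice, had the smallest fold change of the 6 in Ad-Yap WT. It had 2214, 2377 and 2454 CPM in Ad-Yap WT libraries and 2361, 2366 and 2573 CPM in Ad-Yap shRNA libraries, against 2062, 1966 and 1931 CPM in Ad-GFP libraries. Neither Yap group overlapped Ad-GFP. The log2 fold change was 0.24 in Ad-Yap WT cells (SE 0.073, edgeR adjusted p = 0.0465) and 0.29 in Ad-Yap shRNA (SE 0.073, edgeR adjusted p = 0.014). The Ad-Yap WT call was lost in 8 of 9 leave-one-out runs, all but the one without Ad-Yap WT replicate 1 (edgeR adjusted p from 0.0365 to 0.156), and the Ad-Yap shRNA call was lost without Ad-GFP replicate 3 (0.0534). The Ad-Yap WT call was also lost with RLE size factors (edgeR adjusted p = 0.0803), cyclic loess (0.146), no filter (0.666), a filter of 10 CPM (0.0522) and only the 2 groups compared (0.142), and the Ad-Yap shRNA call with RLE size factors (0.0524), cyclic loess (0.0614) and no filter (0.45). With library size as the only scaling the fold changes of miR-92a-3p were −0.07 and −0.31, when the median of all tested miRNAs was −0.27 and −0.54.

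miR-92b-3p shares the seed of miR-92a-3p but comes from its own gene on chromosome 2, and it had the largest fold change of the 10 members in Ad-Yap WT. It had 55.5, 54.1 and 52.6 CPM in Ad-Yap WT libraries and 29.1, 43.3 and 36.9 CPM in Ad-Yap shRNA libraries, against 25.7, 17.5 and 25.6 CPM in Ad-GFP libraries. The 3 groups did not overlap. Its log2 fold change in Ad-Yap WT was 1.24 (SE 0.206, edgeR adjusted p = 0.00599, held in all 9 leave-one-out runs). In Ad-Yap shRNA it was 0.67 (SE 0.206, edgeR adjusted p = 0.0329), and this call was lost in 6 of 9 leave-one-out runs, all but those without Ad-Yap WT replicate 2, Ad-Yap WT replicate 3 and Ad-Yap shRNA replicate 1 (edgeR adjusted p from 0.0148 to 0.0818). It was also lost with library size only (0.807), no filter (0.149) and only the 2 groups compared (0.0727), as edgeR adjusted p.

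In miR-106b-25, miR-106b-5p changed with the shRNA while its neighbours did not pass. miR-106b-5p, the AAAGUGC miRNA that opens this cluster, had 271, 278 and 253 CPM in Ad-Yap WT libraries and 405.5, 703 and 503 CPM in Ad-Yap shRNA libraries, against 275, 209 and 276 CPM in Ad-GFP libraries. The Ad-Yap shRNA libraries lay above all others, and Ad-Yap WT overlapped Ad-GFP. The log2 fold change was 1.08 in Ad-Yap shRNA (SE 0.206, edgeR adjusted p = 0.00418, held in all 9 leave-one-out runs) and 0.08 in Ad-Yap WT cells (edgeR adjusted p = 0.835). Without Ad-Yap shRNA replicate 2, which holds the highest value, the Ad-Yap shRNA fold change was 0.85 (edgeR adjusted p = 0.00607). With library size only the Ad-Yap shRNA call was lost.

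miR-93-5p, the most abundant member and also an AAAGUGC miRNA, had 2932, 2867 and 2993 CPM in Ad-Yap WT libraries and 2712, 2566 and 3268 CPM in Ad-Yap shRNA libraries, against 3106, 2916 and 2735 CPM in Ad-GFP libraries. The 3 groups overlapped. Its log2 fold change was 0.01 in Ad-Yap WT cells (95% confidence interval −0.23 to 0.24, edgeR adjusted p = 0.976) and −0.04 in Ad-Yap shRNA (−0.27 to 0.20, edgeR adjusted p = 0.827). miR-25-3p, an AUUGCAC miRNA known in mouse heart for repressing the calcium pump SERCA2a, had 328, 348.5 and 308 CPM in Ad-Yap WT libraries and 491, 352 and 434 CPM in Ad-Yap shRNA libraries, against 321, 361 and 303 CPM in Ad-GFP libraries. Only 2 of 3 Ad-Yap shRNA libraries lay above the Ad-GFP range. Its log2 fold change of 0.37 in Ad-Yap shRNA did not pass (95% confidence interval 0.06 to 0.69, edgeR adjusted p = 0.059), and in Ad-Yap WT the interval ran from −0.32 to 0.31 (edgeR adjusted p = 0.995). The first result rested on the setting: miR-25-3p passed as higher in Ad-Yap shRNA with cyclic loess and without Ad-Yap shRNA replicate 2 (edgeR adjusted p = 0.0306).

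**Figure D2:**
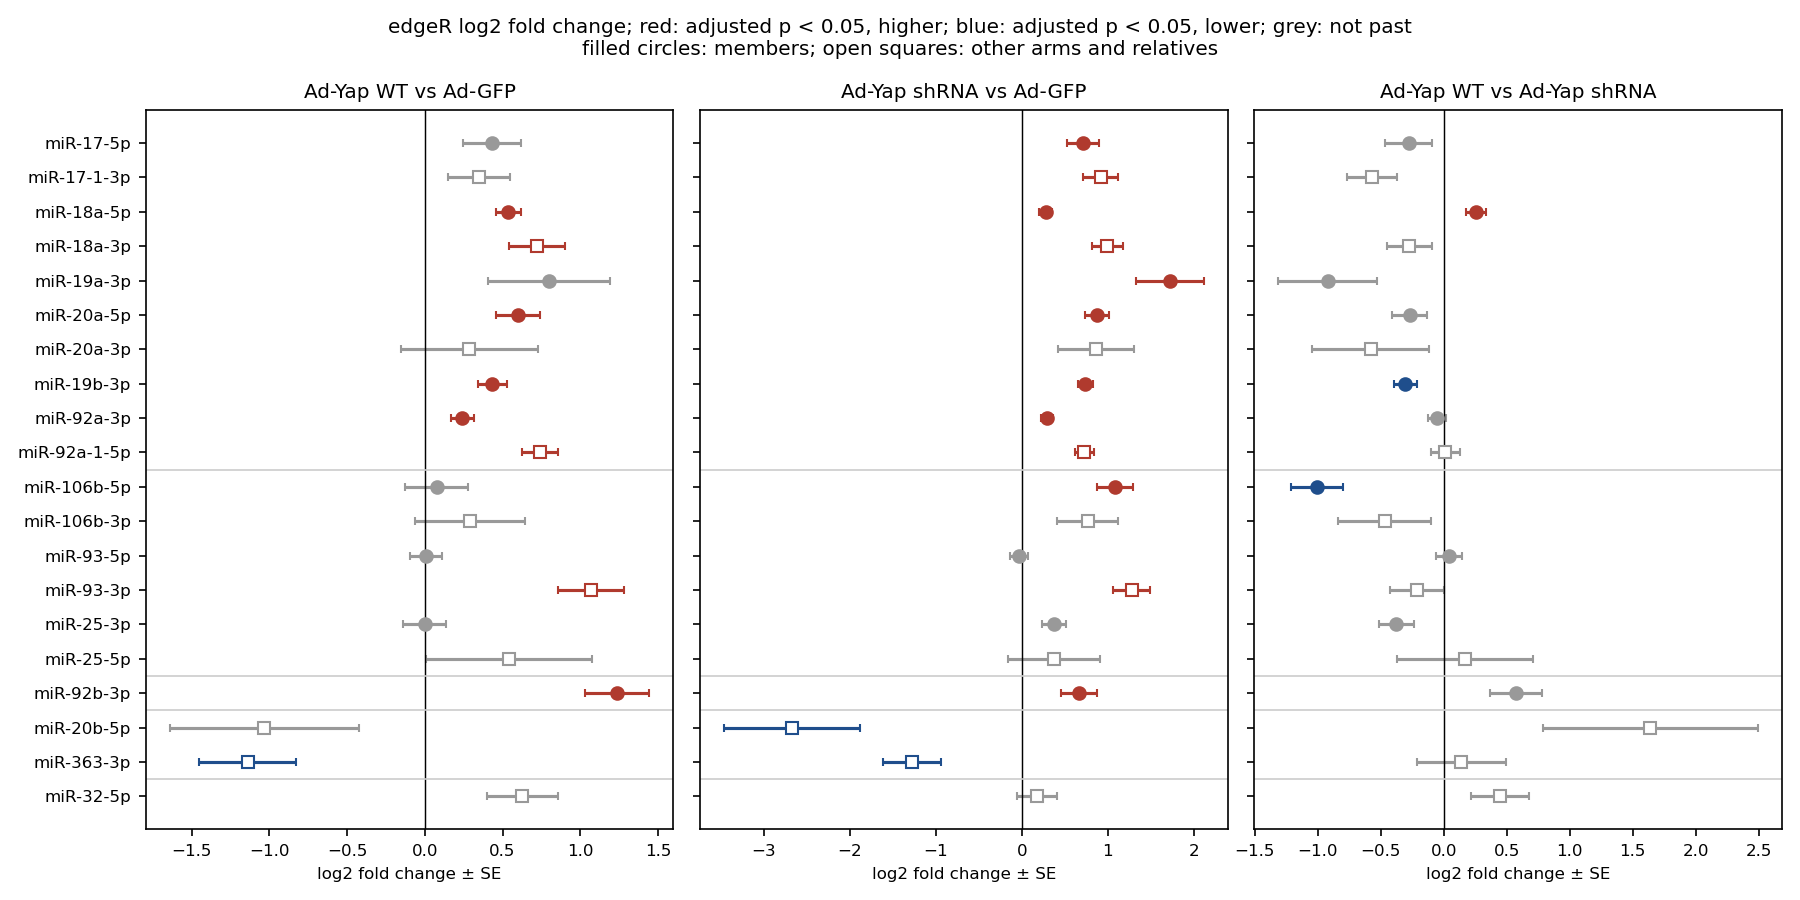
Each panel plots edgeR log2 fold changes ± SE (x axis) for the members (filled circles) and for other arms and relatives (open squares), grouped by cluster, for Ad-Yap WT against Ad-GFP, Ad-Yap shRNA against Ad-GFP and Ad-Yap WT against Ad-Yap shRNA, with separate x scales. Red and blue mark adjusted p under 0.05, higher and lower with TMM scaling; with the deposited library totals every red mark among the members in the comparisons with Ad-GFP turns below 0.

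Set against each other directly, the Yap groups differed in 3 members. In Ad-Yap WT against Ad-Yap shRNA, 1 member was higher, 2 were lower and 7 did not pass (edgeR, Benjamini-Hochberg), beside 28.5% of all tested miRNAs called, 14.2% higher and 14.3% lower, and the members' median log2 fold change was −0.27 against −0.04 over all. miR-106b-5p was lower in Ad-Yap WT by a log2 fold change of −1.01 (SE 0.206, edgeR adjusted p = 0.00923), and this call held in all 9 leave-one-out runs, between −1.21 and −0.78. miR-19b-3p was lower with −0.30 (SE 0.0907, edgeR adjusted p = 0.0386), a call that only the runs leaving out Ad-Yap WT replicate 2, or else Ad-Yap shRNA replicate 2, kept (edgeR adjusted p from 0.0365 to 0.13 over 9 runs). Of 9 other processing alternatives, 1 kept it, cyclic loess (edgeR adjusted p = 0.0343). miR-18a-5p was higher with 0.26 (SE 0.0792, edgeR adjusted p = 0.0426), kept of the leave-one-out runs only without Ad-Yap WT replicate 2 (edgeR adjusted p from 0.0468 to 0.151) and lost with the deposited totals (0.0721), cyclic loess (0.139), no filter (0.392) and only the 2 groups compared (0.0748). Values of miR-92b-3p (log2 fold change 0.57, edgeR adjusted p = 0.0736), miR-25-3p (−0.38, 0.0758) and miR-19a-3p (−0.92, 0.118) did not pass, although their libraries did not overlap between the groups. For miR-92b-3p this rested on the setting, since it passed as higher in Ad-Yap WT in 6 of 9 other processing alternatives, among them RLE size factors (edgeR adjusted p = 0.044), cyclic loess (0.0198) and DESeq2 (adjusted p = 0.0279). In all, 2 members were higher and 4 lower without overlap, beside 43.4% of all tested miRNAs without overlap in either direction, 20.4% higher and 23% lower. Over the leave-one-out runs the count of called members ranged from 1 to 4.

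Ratios of counts inside a library are free of the scaling and compare members with each other. In all, 10 ratios were tested in 3 comparisons, with 30 two-sided exact permutation tests in all, in which 3 against 3 libraries cannot give p below 0.1 and the smallest Benjamini-Hochberg value was 0.231, so the separations are given as values. Within miR-17-92, miR-20a-5p over miR-17-5p was 3.17, 3.05 and 2.96 in Ad-Yap WT cells and 3.41, 2.81 and 2.93 in Ad-Yap shRNA, against 2.36, 3.22 and 2.79 in Ad-GFP. This ratio overlapped in every comparison, as did miR-19b-3p over miR-17-5p. miR-18a-5p over miR-17-5p was 1.3, 1.33 and 1.15 in Ad-Yap WT cells and 0.97, 0.928 and 0.733 in Ad-Yap shRNA, against 1.02, 1.47 and 1.11 in Ad-GFP. The Ad-Yap shRNA libraries lay below both other groups, by a mean log2 difference of −0.45 from Ad-GFP and with Ad-Yap WT 0.53 above Ad-Yap shRNA (exact permutation p = 0.1 for both). miR-92a-3p over miR-17-5p was likewise lower in Ad-Yap shRNA than in Ad-GFP without overlap (log2 difference −0.43, exact permutation p = 0.1). miR-19a-3p over miR-17-5p went the other way, with 0.0173, 0.039 and 0.0389 in Ad-Yap WT cells and 0.0482, 0.0628 and 0.0391 in Ad-Yap shRNA, against 0.021, 0.0182 and 0.0325 in Ad-GFP. Ad-Yap shRNA lay above Ad-GFP (log2 difference 1.08) and narrowly above Ad-Yap WT (Ad-Yap WT minus Ad-Yap shRNA −0.72, exact permutation p = 0.1 for both).

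Within miR-106b-25, miR-93-5p over miR-106b-5p was 10.8, 10.3 and 11.8 in Ad-Yap WT cells and 6.69, 3.65 and 6.49 in Ad-Yap shRNA, against 11.3, 13.9 and 9.89 in Ad-GFP. All 3 Ad-Yap shRNA libraries lay below the other 6, by a mean log2 difference of −1.10 from Ad-GFP and with Ad-Yap WT 1.02 above Ad-Yap shRNA (exact permutation p = 0.1 for both). Between the genes of the AUUGCAC family, miR-92b-3p over miR-92a-3p was 0.0251, 0.0228 and 0.0215 in Ad-Yap WT cells and 0.0123, 0.0183 and 0.0143 in Ad-Yap shRNA, against 0.0125, 0.0089 and 0.0132 in Ad-GFP. Ad-Yap WT lay above both other groups, by 1.02 over Ad-GFP and 0.64 over Ad-Yap shRNA on the log2 scale (exact permutation p = 0.1 for both), and Ad-Yap shRNA overlapped Ad-GFP. miR-25-3p over miR-92a-3p was lower in Ad-Yap WT than in Ad-GFP without overlap (log2 difference −0.24, exact permutation p = 0.1). In all, 2 of 10 ratios did not overlap between Ad-Yap WT and Ad-GFP, 4 of 10 between Ad-Yap shRNA and Ad-GFP, and 7 of 10 between Ad-Yap WT and Ad-Yap shRNA. The ratios share members, so these counts are not independent, and no share over other ratios was computed. Of the last set, miR-25-3p over miR-106b-5p had a log2 difference of 0.61. It became −0.29 with miR-106b-5p and miR-93-5p summed as the denominator.

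**Figure D3:**
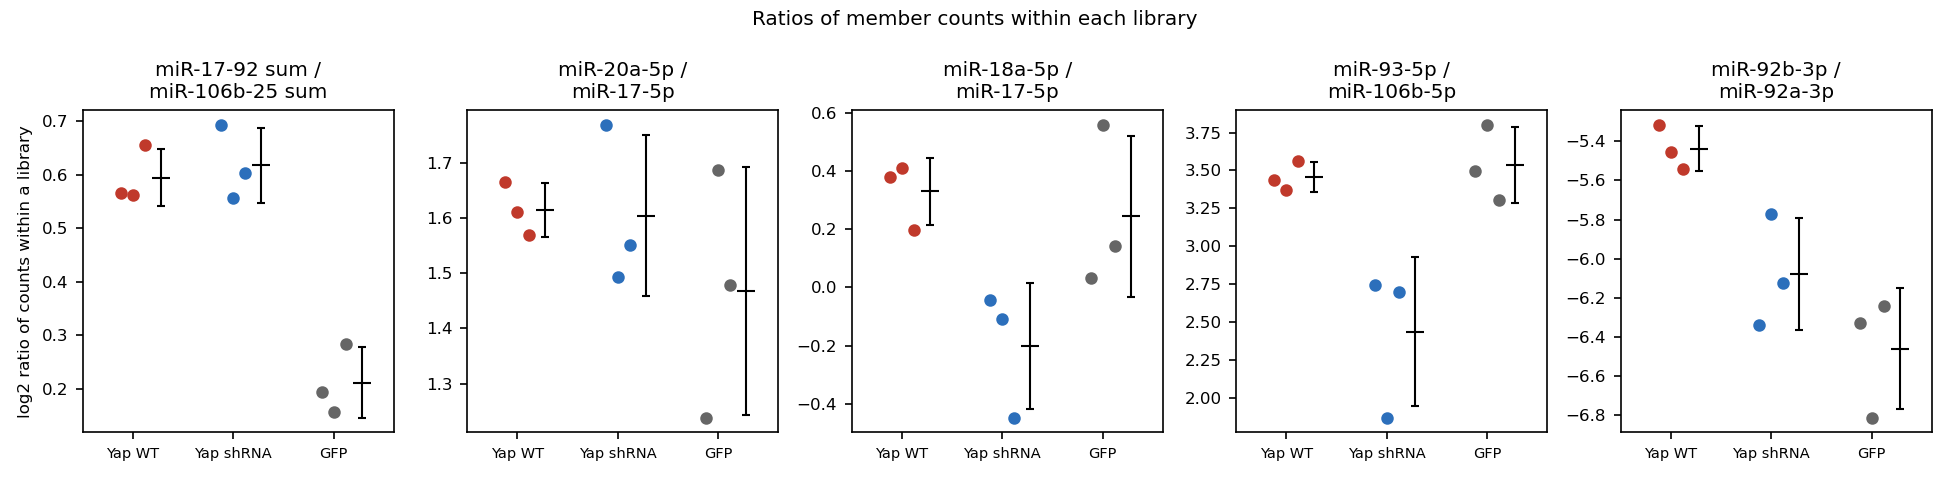
Each panel plots a log2 ratio of counts within a library, with a point per library and the mean ± SD (n = 3 each), on its own axis that does not start at 0. The ratio of the miR-17-92 sum to the miR-106b-25 sum was higher in both Yap groups than in Ad-GFP, and miR-93-5p over miR-106b-5p was lowest in Ad-Yap shRNA.

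The less abundant strands of the same hairpins give another reading of each precursor, and for the hairpins with a copy on chromosome X a reading of the chromosome 15 locus alone. Of 22 other arms and relatives listed, 16 were in the table and 10 were tested. With TMM scaling 3 of these 10 rose and 1 fell in Ad-Yap WT against Ad-GFP, beside 15.4% higher and 9.67% lower among all tested miRNAs, and 4 rose and 2 fell in Ad-Yap shRNA, beside 24% and 17.8% (with the deposited library totals the arms that rose turn below 0). miR-92a-1-5p, cut only from the chromosome 15 copy, had 160.6, 168.2 and 160.8 CPM in Ad-Yap WT cells and 170.6, 142.4 and 172.2 CPM in Ad-Yap shRNA, against 97.6, 92.9 and 102 CPM in Ad-GFP. Both Yap groups lay apart from Ad-GFP, with log2 fold changes of 0.74 in Ad-Yap WT cells (SE 0.114, edgeR adjusted p = 0.00497) and 0.73 in Ad-Yap shRNA (SE 0.115, edgeR adjusted p = 0.00189). Each was larger than that of miR-92a-3p, whose reads may also come from the chromosome X copy. Both calls held in all 9 leave-one-out runs and were lost with library size only. miR-17-1-3p, the chromosome 15 partner of miR-17-5p, rose in Ad-Yap shRNA with 0.92 (SE 0.2, edgeR adjusted p = 0.00757), and its 0.35 in Ad-Yap WT did not pass (edgeR adjusted p = 0.232). miR-18a-3p rose with 0.72 in Ad-Yap WT cells (SE 0.178, edgeR adjusted p = 0.0238) and 0.99 in Ad-Yap shRNA (SE 0.179, edgeR adjusted p = 0.00327). The Ad-Yap WT call of miR-18a-3p was lost without Ad-Yap WT replicate 2 (0.0608), Ad-Yap WT replicate 3 (0.0564), Ad-GFP replicate 1 (0.0845) or Ad-GFP replicate 2 (0.0555), as edgeR adjusted p. It was also lost with library size only (edgeR adjusted p = 0.108) and no filter (0.128). The Ad-Yap shRNA calls of miR-17-1-3p and miR-18a-3p held in all 9 leave-one-out runs and were lost with library size only.

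The strands of the miR-93 hairpin differed in their change. The 3′ strand miR-93-3p had 11.2, 16.1 and 11.6 CPM in Ad-Yap WT cells (37, 28 and 24 reads) and 13.5, 14.7 and 16.7 CPM in Ad-Yap shRNA (25, 19 and 19 reads), against 6.54, 4.94 and 6.87 CPM in Ad-GFP (29, 22 and 29 reads). It rose by log2 fold changes of 1.07 in Ad-Yap WT cells (SE 0.211, edgeR adjusted p = 0.0105) and 1.28 in Ad-Yap shRNA (SE 0.216, edgeR adjusted p = 0.00247), both held in all 9 leave-one-out runs, while miR-93-5p did not pass in either. The share of miR-93-3p among reads of both strands, which needs no scaling, was 0.442 ± 0.102% in Ad-Yap WT cells and 0.524 ± 0.0397% in Ad-Yap shRNA, against 0.210 ± 0.0407% in Ad-GFP (SD, n = 3 each), with no overlap between either Yap group and Ad-GFP. It remained the minor strand in all 9 libraries. miR-18a-3p made up 5.65 ± 0.583% of its hairpin's reads in Ad-Yap WT cells and 7.96 ± 0.681% in Ad-Yap shRNA, against 4.98 ± 1.11% in Ad-GFP. For miR-18a only Ad-Yap shRNA lay apart from Ad-GFP. miR-92a-1-5p made up 6.51 ± 0.318% in Ad-Yap WT cells and 6.23 ± 0.533% in Ad-Yap shRNA, against 4.69 ± 0.297% in Ad-GFP, of the reads of miR-92a-1-5p and miR-92a-3p together. RefSeq also places miR-92a-3p on chromosome X, so this may not be the strand share of 1 hairpin. A change in the X-linked copy and one in strand balance cannot be told apart in it. The same limit applies to miR-17-1-3p with miR-17-5p. For that pair the other strand of the X-linked copy, miR-17-2-3p, had 1 read over the 9 libraries, against 2849 reads of miR-17-1-3p. How far the X-linked copies add to these reads was not tested. The shares of miR-17-1-3p, miR-20a-3p, miR-106b-3p and miR-25-5p overlapped. The miR-93 and miR-18a hairpins are shown from RefSeq (GRCr8, chr12:22156844-22156930 on the minus strand and chr15:98587984-98588079 on the plus strand), 5′ to 3′, with the sequence of each mature strand in capitals.
Mir93: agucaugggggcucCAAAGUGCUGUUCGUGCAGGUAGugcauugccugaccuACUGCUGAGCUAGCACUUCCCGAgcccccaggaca
Mir18a: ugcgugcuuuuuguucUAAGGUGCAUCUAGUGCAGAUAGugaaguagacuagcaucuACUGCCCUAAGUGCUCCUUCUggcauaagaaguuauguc

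**Figure D4:**
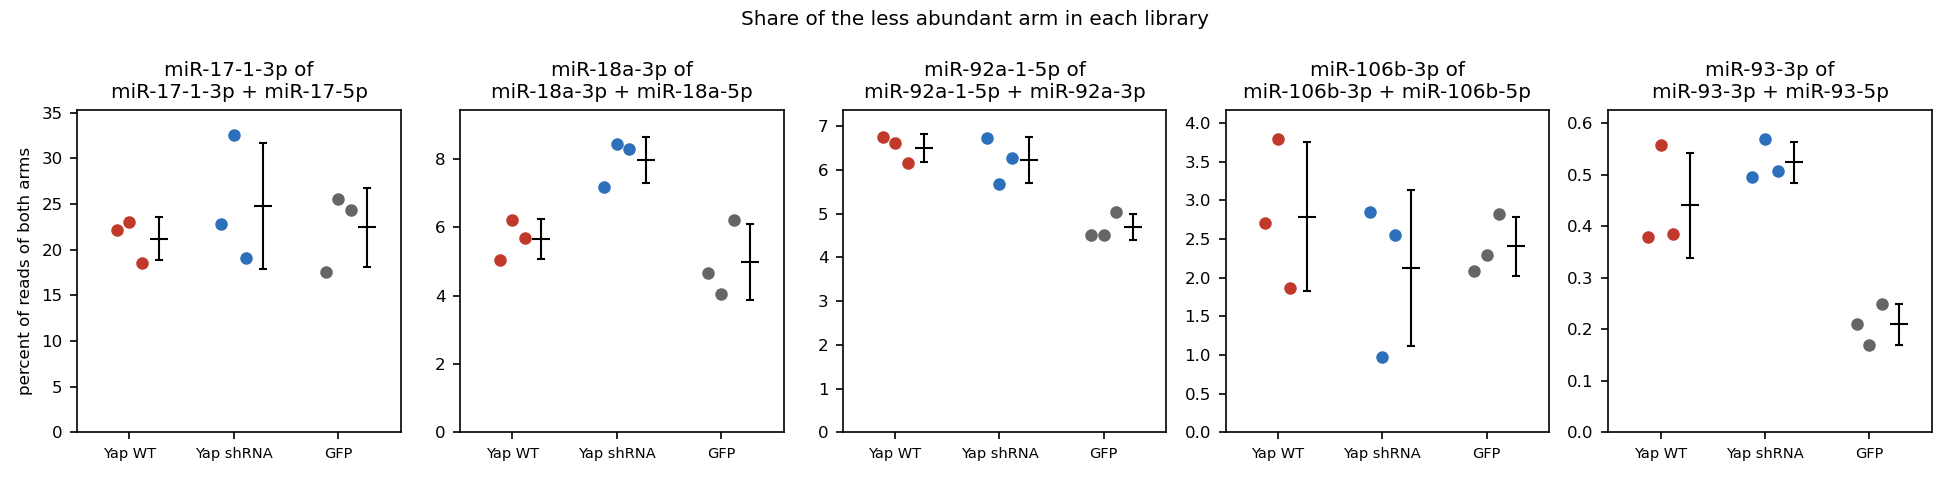
Each panel plots the less abundant strand as a percentage of the reads of the 2 named strands, from 0, with a point per library and the mean ± SD (n = 3 each). For miR-93-3p both Yap groups lay above Ad-GFP, between 0.379% and 0.57% against 0.169% to 0.25%, and for miR-106b-3p the groups overlapped.

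Of the miRNAs made only from the X-linked paralog cluster, miR-363-3p fell in both Yap groups against Ad-GFP, and miR-20b-5p fell in Ad-Yap shRNA. miR-363-3p, an AUUGCAC miRNA known from mouse T cell tumours, had 7.24, 4.61 and 8.69 CPM in Ad-Yap WT cells and 4.32, 5.42 and 9.67 CPM in Ad-Yap shRNA, against 14.9, 17.7 and 13.3 CPM in Ad-GFP. All Yap-virus libraries lay below all Ad-GFP libraries. It fell with log2 fold changes of −1.14 in Ad-Yap WT cells (SE 0.31, edgeR adjusted p = 0.0317) and −1.28 in Ad-Yap shRNA (SE 0.333, edgeR adjusted p = 0.0169). The first call was lost in 7 of 9 leave-one-out runs, all but those without Ad-Yap shRNA replicate 1 or Ad-Yap shRNA replicate 3 (edgeR adjusted p from 0.0275 to 0.0957), and the second without Ad-Yap shRNA replicate 1 (0.0776), Ad-Yap shRNA replicate 2 (0.0709) or Ad-GFP replicate 2 (0.0511). miR-20b-5p, the AAAGUGC miRNA of the X-linked cluster, had 24, 10 and 6 reads in Ad-Yap WT cells and 1, 0 and 6 reads in Ad-Yap shRNA, against 52, 55 and 39 reads in Ad-GFP. The library with 0 reads allows a level of up to 2.32 CPM by a limit of 3 counts, which covers counting error only. Its log2 fold change of −2.67 in Ad-Yap shRNA passed (SE 0.791, edgeR adjusted p = 0.0274), and the −1.03 in Ad-Yap WT did not (edgeR adjusted p = 0.25). The call of miR-20b-5p was lost without Ad-Yap shRNA replicate 1 (0.113), Ad-Yap shRNA replicate 2 (0.0725) or Ad-GFP replicate 1 (0.0682), 2 (0.0659) or 3 (0.0526), as edgeR adjusted p, and the fold change became −4.95 without Ad-Yap shRNA replicate 3. miR-32-5p, an AUUGCAC relative from chromosome 5, had 414 ± 38.1 CPM in Ad-Yap WT cells and 303 ± 58.3 CPM in Ad-Yap shRNA, against 268 ± 74 CPM in Ad-GFP (SD, n = 3 each), and passed in neither comparison (edgeR adjusted p = 0.0791 and 0.577).

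Summed by seed, the members form pools that can act on the same target sites. The relatives miR-20b-5p, miR-363-3p and miR-32-5p, whose values are given above, also carry seeds of the members and are not in these sums. The AAAGUGC pool of miR-17-5p, miR-20a-5p, miR-93-5p and miR-106b-5p was 5090, 4760 and 5215 CPM in Ad-Yap WT cells and 5337, 5102 and 6330 CPM in Ad-Yap shRNA, against 4711, 4219 and 4308 CPM in Ad-GFP. Both Yap groups lay above Ad-GFP, by 1.14-fold and 1.27-fold in the means, and miR-93-5p supplied the largest part of the pool in every group. The miR-19 pool was 538, 634 and 610.1 CPM in Ad-Yap WT cells and 767, 682 and 778 CPM in Ad-Yap shRNA, against 437, 443 and 429.9 CPM in Ad-GFP, which is 1.36-fold and 1.70-fold in the means. The 3 groups did not overlap. The AUUGCAC pool of miR-25-3p, miR-92a-3p and miR-92b-3p was 2598, 2780 and 2814 CPM in Ad-Yap WT cells and 2881, 2761 and 3043 CPM in Ad-Yap shRNA, against 2408, 2345 and 2260 CPM in Ad-GFP, and both Yap groups lay above Ad-GFP. These are TMM-scaled values, and with the deposited library totals the fold changes of the single members in each pool are below 0 against Ad-GFP.

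The direction of the changes against Ad-GFP rests on what is held equal between libraries. In the authors' deposited RPM (reads per 1e+06 of a library total), which are relative to a larger total than the miRNA reads, miR-20a-5p was at 179 ± 96.3 RPM in Ad-Yap WT cells and 113 ± 33.9 RPM in Ad-Yap shRNA, against 284 ± 22.2 RPM in Ad-GFP (SD, n = 3 each). miR-93-5p was at 374 ± 185 RPM in Ad-Yap WT cells and 192 ± 40.6 RPM in Ad-Yap shRNA, against 915 ± 83.4 RPM in Ad-GFP. In RPM 5 members lay below Ad-GFP without overlap in Ad-Yap WT, beside 65.1% of all tested miRNAs, and 9 in Ad-Yap shRNA, beside 84.5%, and the other members overlapped. The members moved with the bulk here: with these totals the median log2 fold change of all tested miRNAs was −1.26 in Ad-Yap WT cells and −2.15 in Ad-Yap shRNA, and that of the members −0.88 and −1.54. With library size only the members' median was 0.12 against −0.27 in Ad-Yap WT cells and 0.09 against −0.54 in Ad-Yap shRNA. A scaling by 1 factor per library moves all miRNAs alike, so the gap between these medians stays nearly fixed by construction.

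**Figure D5:**
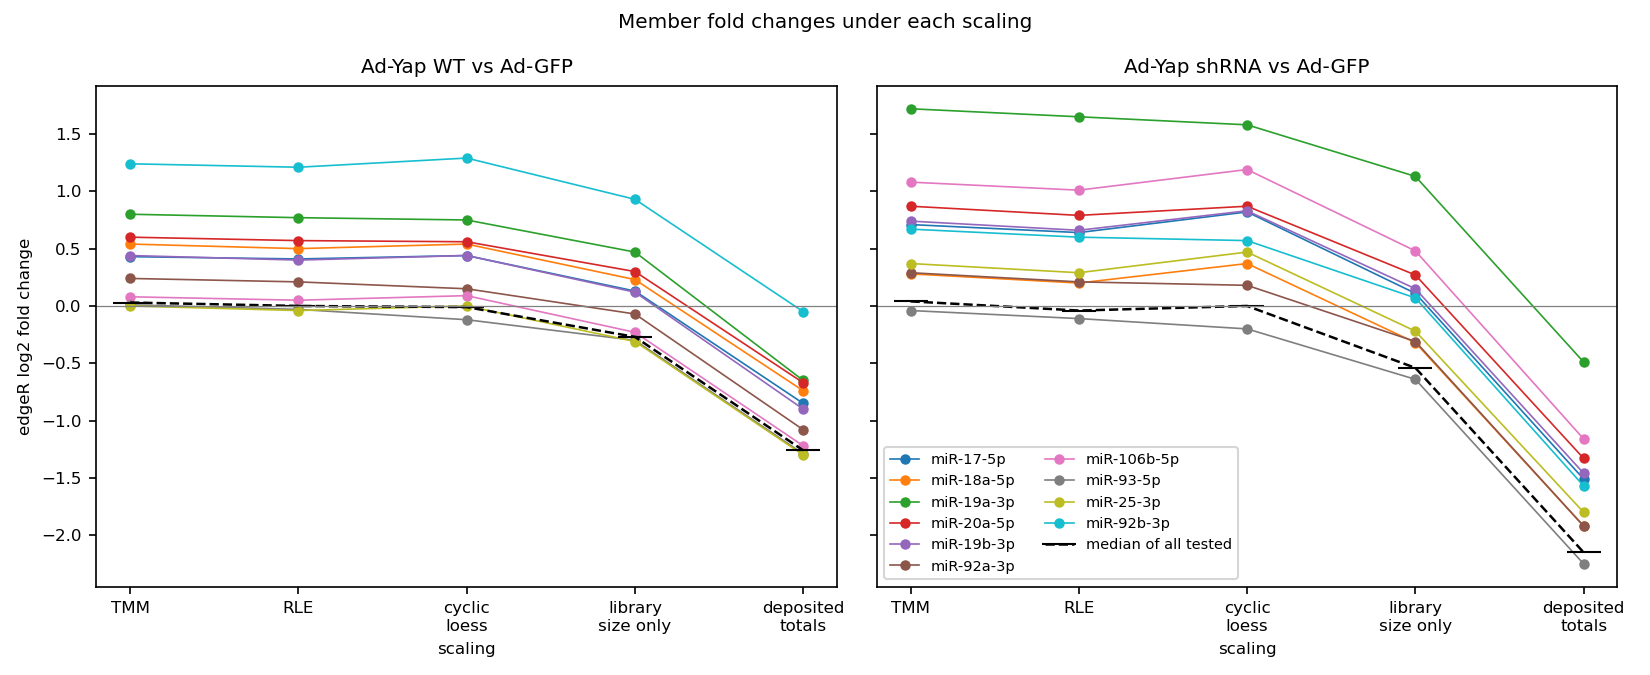
The panels plot edgeR log2 fold changes of each member against Ad-GFP, for Ad-Yap WT and Ad-Yap shRNA, under 5 scalings (TMM, RLE, cyclic loess, library size only and deposited library totals), with the median of all tested miRNAs dashed. The members shift down together with the median, to below 0 for all 10 with the deposited totals.

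The miRNAs whose profile over the 9 libraries was most like each cluster are given by Pearson's r on log2 CPM over 418 annotated candidates, as a description in which the 9 libraries and the scaling are shared. For the mean of the 6 miR-17-92 members they were miR-7a-5p (r = 0.969), miR-154-3p (0.964) and miR-18a-3p (0.962). Of these, miR-18a-3p is cut from the same hairpin as miR-18a-5p, and miR-7a-5p averaged 4789 CPM in Ad-Yap WT cells and 8028 CPM in Ad-Yap shRNA, against 1861 CPM in Ad-GFP. For the mean of the 3 miR-106b-25 members they were miR-224-5p (0.972), miR-30b-5p (0.963) and miR-299b-5p (0.945), the last of which averaged under 1 CPM in Ad-Yap WT cells and in Ad-GFP. For miR-92b-3p they were miR-34a-3p (0.947), miR-216a-5p (0.908) and miR-503-5p (0.905), and miR-34a-3p averaged 35.0 CPM in Ad-Yap WT cells and 24.4 CPM in Ad-Yap shRNA, against 11 CPM in Ad-GFP.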

How the data were processed

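Small RNA libraries of 9 cultures (3 groups of 3) were analysed from the deposited table. The authors deposited raw read counts per miRNA and, beside them, RPM (reads per 1e+06 of a library total), and which total this is has not been stated. Per the labels' protocols, which describe both an oligo dT mRNA and a small RNA preparation, reads were single-end of 50 bases; the small RNA preparation, with adaptor ligation and size selection, was taken to apply to this miRNA table. Bowtie2, DESeq2 and the rn6 build are named, with no role or version, per the submitters' processing notes. How reads that fit several entries were assigned was not stated in the sources used here. The table holds 653 annotated and 769 predicted entries, and no per-sample column was left unused (0).

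Counts were filtered with filterByExpr (minimum count 10), TMM-scaled and tested with edgeR 4.0.16 (limma 3.58.1, R 4.3.3): quasi-likelihood test, 1 mean per group over all 9 libraries, two-sided, Benjamini-Hochberg over 579 miRNAs, threshold 0.05. A "leave-one-out run" is the same fit without 1 of the 9 libraries. DESeq2 1.42.0, other scalings and filters, fits of 2 groups only and a replicate block were alternatives. Within-library ratios were compared with exact permutation tests. Intervals and limits cover counting error or library spread only, since PCR reads without molecular identifiers are not independent molecules. No libraries within a group agreed within sampling noise. Sequences and positions are from RefSeq (GRCr8), which matched 10 of 10 members and 19 of 22 related names.

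The text names all members, the related miRNAs that were tested, and the 3 annotated miRNAs most like each cluster. The members, lists and tests were chosen with earlier results of these data known.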

Additional observations from a re-analysis of the deposited data

How the results depend on the processing

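The calls rest on the scaling most. With the deposited library totals 4 members fell in Ad-Yap WT against Ad-GFP and 9 in Ad-Yap shRNA, and of all tested miRNAs 322 (10 higher, 312 lower) and 493 (14 higher, 479 lower) passed. The log2 fold changes that reversed there were, in Ad-Yap WT, −0.74 (miR-18a-5p), −0.67 (miR-20a-5p), −0.90 (miR-19b-3p), −1.08 (miR-92a-3p), −1.22 (miR-106b-5p), −1.29 (miR-93-5p), −0.05 (miR-92b-3p), −0.60 (miR-18a-3p), −0.56 (miR-92a-1-5p) and −0.29 (miR-93-3p). In Ad-Yap shRNA they were −1.51 (miR-17-5p), −1.92 (miR-18a-5p), −0.49 (miR-19a-3p), −1.33 (miR-20a-5p), −1.46 (miR-19b-3p), −1.92 (miR-92a-3p), −1.16 (miR-106b-5p), −1.80 (miR-25-3p), −1.57 (miR-92b-3p), −1.30 (miR-17-1-3p), −1.22 (miR-18a-3p), −1.46 (miR-92a-1-5p) and −0.93 (miR-93-3p), and in Ad-Yap WT against Ad-Yap shRNA 0.56 (miR-19b-3p). With library size only, 1 member passed in Ad-Yap WT and 3 did so with Ad-Yap shRNA (1 higher, 2 lower), and miR-92a-3p turned to −0.07 and −0.31 and miR-18a-5p to −0.32 in Ad-Yap shRNA. No called member reversed under the other 16 alternatives. With no filter 1 member passed in Ad-Yap WT (90 of all miRNAs), 5 in Ad-Yap shRNA and 1 between the Yap groups. With only the 2 groups compared, 3 passed in Ad-Yap WT and 1 between the Yap groups, as did 1 there with the deposited totals. Leaving out 1 library gave 2 to 5, 5 to 8 and 1 to 4 members in the 3 comparisons, and 71 to 148, 191 to 245 and 125 to 164 of all tested miRNAs. The replicate block gave 4, 7 and 2 members. Deviations of same-numbered libraries from their group means correlated with r from −0.336 to 0.332. With 3 libraries per group, these values cannot tell whether the numbers pair. With the block, miR-92a-3p (edgeR adjusted p = 0.0684) and miR-363-3p (0.0566) did not pass in Ad-Yap WT. Neither did miR-92b-3p (0.0718) and miR-20b-5p (0.0676) in Ad-Yap shRNA, nor miR-19b-3p between the Yap groups (0.0719), as edgeR adjusted p. The cause of these changes was not tested. Depth limits miR-19a-3p, miR-93-3p, miR-363-3p, miR-20b-5p, miR-20a-3p and miR-106b-3p, with under 100 reads per library. It also limits miR-92b-3p, with 94 to 184 reads per library in Ad-Yap WT, 42 to 56 in Ad-Yap shRNA and 78 to 114 in Ad-GFP.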
